A study of Mus musculus with 12 samples.

Results

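The genes described here are 10 members of the fibroblast growth factor (FGF) signaling pathway: the receptors Fgfr1, Fgfr2 and Fgfr3, the ligand Fgf15, the ETS transcription factors Etv1, Etv4 and Etv5, and the Sprouty genes Spry1, Spry2 and Spry4. They were chosen by name, and all 10 were among the 23513 genes in the count tables. Single nucleus RNA sequencing (snRNAseq) had been performed on cortices of C57BL/6J embryos at embryonic day 14, after daily intraperitoneal injection of the dam with saline or with 2.5 g/kg ethanol (EtOH). Prenatal alcohol exposure (PAE) began in mid-gestation and ended on the day before collection. There were 5 saline embryos (S1-1, S1-2, S2-1, S2-2 and S2-4) and 6 EtOH embryos (E1-1, E1-2 and E2-1 to E2-4), from 2 dams per group, and each group had libraries in both of the 2 library batches. The first digit of an embryo's name gives its batch and its dam, so batch and dam coincide within a group. Nuclei came in 25 clusters, numbered by size: radial glial cells (RGCs, Clusters 2, 3, 12, 20 and 21), intermediate progenitors (IPCs, Clusters 6 and 17), projection neurons (PN, 8 clusters), interneurons (Int, 7 clusters) and 3 others.

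FGF ligands bind receptor tyrosine kinases at the cell surface, with heparan sulfate as a cofactor, and activate the RAS and MAP kinase cascade. The ETS factors Etv1, Etv4 and Etv5 act downstream of that cascade, and Sprouty proteins are feedback inhibitors of it. In the developing telencephalon, FGF signaling from the rostral midline patterns the cortex along its rostrocaudal axis, and FGF receptors in radial glia maintain progenitor divisions. Fgf15 is the mouse counterpart of human FGF19.

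The 11 libraries held 50550 nuclei, with 44017566 to 83061737 UMIs (unique molecular identifiers, which count captured RNA molecules) per saline embryo and 14078316 to 38034349 per EtOH embryo. Median UMIs per nucleus were 8365 to 9051 in 4 saline embryos, 6325 in S2-4 and 4072 to 6911 in the EtOH embryos. Saline embryo S2-4 stood apart from its group. In each of the 4 major cell types its expression profile correlated more with the EtOH libraries than with the other saline libraries, for example a mean r of 0.994 against 0.977 in PN, while the other 10 libraries were closer to their own group. Whether its label is right was not tested, and it is kept in the saline group as labelled. Libraries shared at most 18 cell barcodes, which was at most 0.384% of the smaller library. The EtOH results on members below that rest on S2-4 are therefore also given without it. The RGC marker list (Hes1, Hes5, Sox2, Pax6, Nes and Slc1a3) summed in saline embryos to a CPM (a gene's share of all UMIs, scaled to counts per 1e+06) of 754 to 988 in RGCs, against 85.2 to 110 in PN.

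The genes differ in how cleanly their annotation delimits them. In GENCODE M21 (GRCm38), Fgfr3 lay at chr5:33721674-33737068 on the plus strand, Etv5 at chr16:22381309-22439719 on the minus strand and Spry2 at chr14:105891947-105896819 on the minus strand. Fgfr2 is annotated at chr7:130162451-133123350 on the minus strand, a span of 2960900 bases, whereas its RefSeq gene ends at 130266808 and is 104358 bases long. Inside the longer span, 14 other protein-coding genes lay on the same strand, and 1 of them (Ctbp2) had a row in the count tables. On the opposite strand 16 of 16 had a row, and 80.2% of all 21951 annotated protein-coding genes did. Whether reads from outside the RefSeq gene were counted as Fgfr2 was not tested, because the tables hold no read positions.

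Promoters (250 bases before to 50 bases after the start, RefSeq, GRCm38.p6) are shown for Fgfr2, the member with calls after EtOH, and for Etv5, Spry1 and Spry2, which shared their highest cluster. Capitals mark the core letters GGAAG of ETS binding sites, or their complement CTTCC. At least 1 of them was present in 71.4% of all 32851 promoters of this length, so a match is a description only. The Fgfr2 window (chr7:130266759-130267058, minus strand) held 1 on each strand, the Spry2 window (chr14:105896770-105897069, minus strand) held 1, and the windows of Etv5 (chr16:22439521-22439820, minus strand) and Spry1 (chr3:37639697-37639996, plus strand) held 0.
Fgfr2: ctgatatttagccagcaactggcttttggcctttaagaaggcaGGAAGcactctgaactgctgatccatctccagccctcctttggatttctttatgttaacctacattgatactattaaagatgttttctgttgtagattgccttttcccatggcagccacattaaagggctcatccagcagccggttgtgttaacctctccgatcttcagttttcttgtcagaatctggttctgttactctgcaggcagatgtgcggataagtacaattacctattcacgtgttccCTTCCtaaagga
Spry2: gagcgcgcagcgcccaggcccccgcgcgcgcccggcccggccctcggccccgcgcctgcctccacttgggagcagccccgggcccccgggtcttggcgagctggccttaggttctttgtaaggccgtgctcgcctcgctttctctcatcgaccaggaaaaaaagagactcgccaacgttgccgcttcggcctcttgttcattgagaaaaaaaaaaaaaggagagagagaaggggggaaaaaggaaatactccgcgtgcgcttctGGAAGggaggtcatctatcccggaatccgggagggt
Etv5: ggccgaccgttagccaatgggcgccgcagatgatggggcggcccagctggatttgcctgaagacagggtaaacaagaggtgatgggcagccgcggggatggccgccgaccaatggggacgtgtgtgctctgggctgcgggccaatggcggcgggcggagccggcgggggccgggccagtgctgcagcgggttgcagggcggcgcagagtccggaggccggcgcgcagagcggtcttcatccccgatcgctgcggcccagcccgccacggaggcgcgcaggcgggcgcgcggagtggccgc
Spry1: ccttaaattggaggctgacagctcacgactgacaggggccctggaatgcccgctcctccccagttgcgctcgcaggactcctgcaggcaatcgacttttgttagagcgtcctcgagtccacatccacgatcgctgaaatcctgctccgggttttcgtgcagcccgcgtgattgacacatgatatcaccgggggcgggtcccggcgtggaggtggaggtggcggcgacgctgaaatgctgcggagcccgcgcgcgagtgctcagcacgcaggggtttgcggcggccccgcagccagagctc

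To describe where each member was expressed, counts were summed per embryo and cluster and scaled to CPM. Because the clusters were made from the same nuclei, levels across clusters are descriptions and were not tested, and levels of different genes are not compared because CPM is not scaled to transcript length. Of the 10 members, 9 had their highest mean level in an RGC cluster, and 6 of these (Fgf15, Etv4, Etv5, Spry1, Spry2 and Spry4) had it in Cluster 20. Etv1 was the exception, with its highest level in the projection neurons of Cluster 24. The share of all genes with their highest mean in RGCs or in Cluster 20 was not computed, so these counts have no background.

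**Figure D1:**
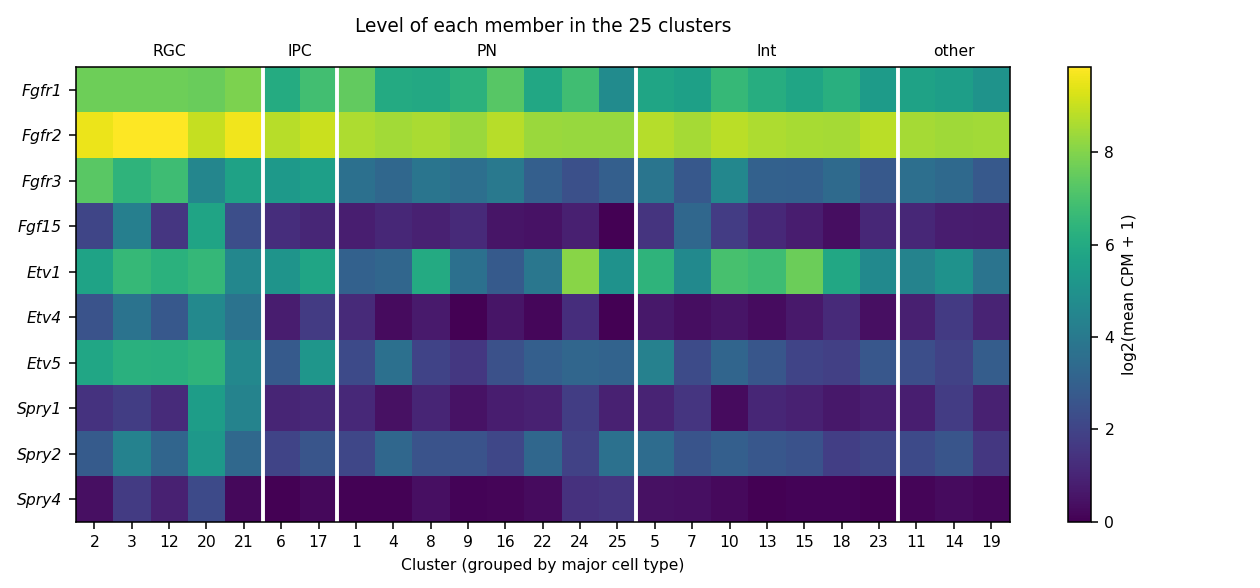
Mean level of each member (rows) in the 25 clusters (columns, grouped by major cell type), as log2 of mean CPM plus 1 over embryos with at least 10 nuclei. Fgfr2 is bright in every cluster, while Fgf15, Etv4, Spry1 and Spry2 stand out in Cluster 20.

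Fgfr2 had counts in every cluster, which may include reads from outside its RefSeq gene (not tested). Its mean level ran from 317 ± 74.0 CPM (SD, n = 7) in the PN of Cluster 25 to 920 ± 138 CPM (SD, n = 11) in the RGCs of Cluster 3, and Cluster 12 (902 ± 152 CPM) was within the spread of Cluster 3. The 4 highest clusters were RGCs, and the step from the fourth, Cluster 2 (745 ± 137 CPM), down to the mitotic IPCs of Cluster 17 (533 ± 121 CPM) was a difference of 212 ± 53.4 CPM within embryos, seen in 11 of 11. The remaining clusters followed with little separation, and 2 of the 24 neighbouring steps in the order exceeded 1 SD of the difference.

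Fgfr1 had a second site of expression outside the progenitors. Its levels in the RGC clusters did not separate, with Cluster 20 the lowest (194 ± 42.9 CPM, SD, n = 9) and the cortical hem RGCs of Cluster 21 the highest (237 ± 56.4 CPM, SD, n = 10). Next came the callosal PN of Cluster 1 at 179 ± 17.7 CPM and the subcortical PN of Cluster 16 at 157 ± 46.7 CPM (SD, n = 11 for both), above both IPC clusters. The early PN of Cluster 9 held 79.9 ± 14.1 CPM and the cells of Cluster 19, which the study left unnamed, held 32.5 ± 9.4 CPM.

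Fgfr3 was the receptor most restricted to progenitors. It was highest in Cluster 2, at 159 ± 32.2 CPM (SD, n = 11), which exceeded Cluster 12 (109 ± 26.7 CPM) in 11 of 11 embryos, and Cluster 3 followed at 82.8 ± 17.4 CPM. Cluster 20, where 6 of the members peaked, held 21.8 ± 16.4 CPM of Fgfr3 (SD, n = 9), the lowest of the RGC clusters. With every nucleus thinned to 2000 UMIs, 26.7% ± 4.4 of nuclei in Cluster 2 had an Fgfr3 UMI, against 0.891% ± 1.18 in the interneurons of Cluster 15, the lowest share. As deposited these shares were 57.5% and 4.73%, at median depths of 7486 and 9146 UMIs per nucleus.

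Cluster 20 was a small RGC cluster of 661 nuclei, with 1 to 220 nuclei per embryo, so that 9 embryos passed the minimum of 10. Its members' levels are shown by embryo in the plot of the RGC clusters. Markers of the septum and ventral midline (Fgf8, Fgf17, Zic1 and Six3) summed there to 398 ± 44.1 CPM, against 29.4 to 188 CPM in the other 4 RGC clusters, and Zic1 alone was 301 ± 20.1 CPM of it. Its RGC markers summed to 947 ± 262 CPM. Its interneuron markers summed to 501 ± 208 CPM, the highest mean of the RGC clusters though within 1 SD of Cluster 3, and its cortical hem markers to 138 ± 138 CPM, against 20.7 to 37.7 CPM in Clusters 2, 3 and 12 and 5609 CPM in Cluster 21. Fgf8 and Fgf17, the ligands of the rostral signaling center, were at 15.9 ± 10.8 and 16.3 ± 12.3 CPM in Cluster 20 and were detected in 9 of 9 embryos. In the other RGC clusters their means were at most 0.577 and 1.19 CPM.

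Fgf15 followed the same cluster. Its mean there was 52.1 ± 23.2 CPM (SD, n = 9), with 29.8, 45.5, 43.1, 33.0 and 48.6 CPM in saline embryos S1-1 to S2-4 and 40.8, 47.4, 80.5 and 100.5 CPM in EtOH embryos E1-1, E2-1, E2-2 and E2-4. Cluster 3 came next at 17.8 ± 6.3 CPM and the interneurons of Cluster 7 at 8.78 ± 6.8 CPM, and each of these steps exceeded its SD. Of Cluster 20 nuclei thinned to 2000 UMIs, 9.16% ± 2.51 had an Fgf15 UMI.

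The Sprouty members, feedback inhibitors of receptor signaling, also had their highest means in Cluster 20. For Spry1 the mean of Cluster 20 was 43.6 ± 24.4 CPM (SD, n = 9), the cortical hem RGCs of Cluster 21 reached 20.2 ± 9.6 CPM (SD, n = 10), and every other cluster mean was at most 2.5 CPM. The drop from Cluster 21 to Cluster 3 was present in 10 of 10 embryos. For Spry2 Cluster 20 averaged 37.1 ± 15.6 CPM, above the 19.7 ± 5.0 CPM of Cluster 3 in 8 of 9 embryos. Spry4 was barely detected, with 168 UMIs in all nuclei and 3.59 ± 3.3 CPM in Cluster 20, a level that did not separate from the 2.31 ± 1.5 CPM of Cluster 3.

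**Figure D2:**
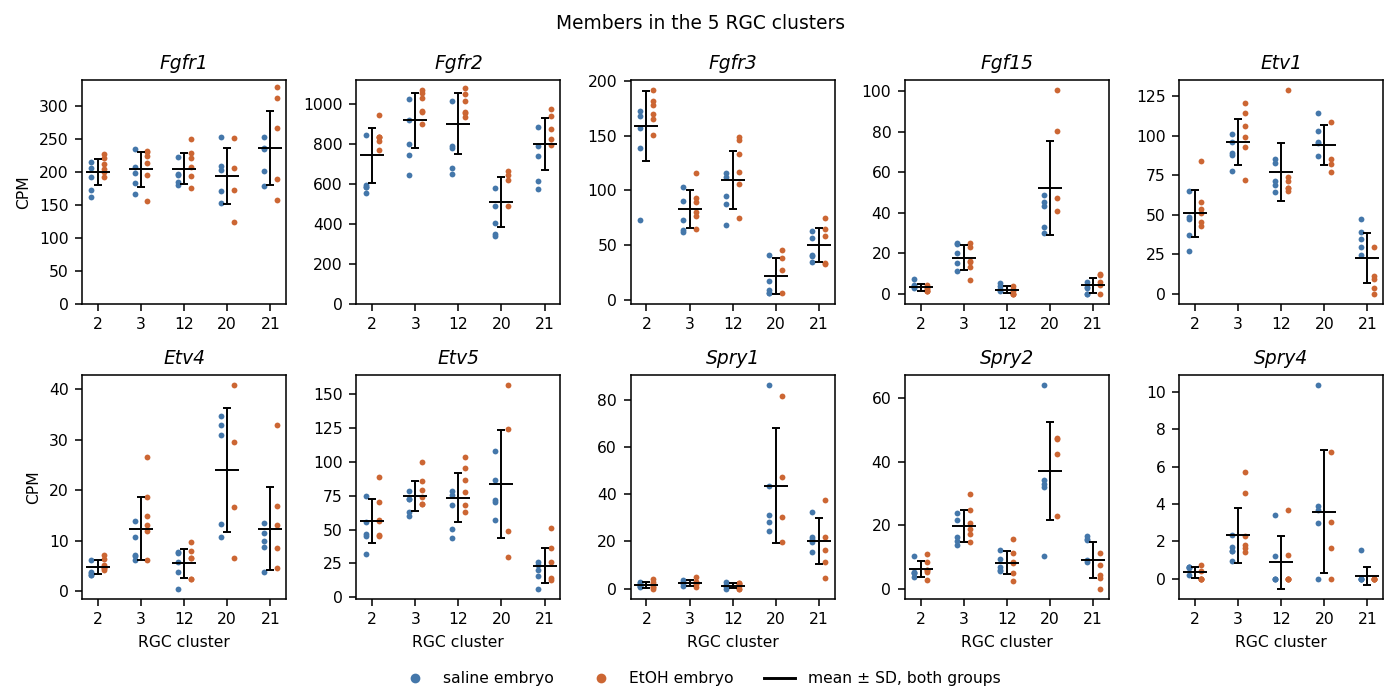
CPM of the 10 members in the 5 RGC clusters, 1 point per embryo with at least 10 nuclei (blue saline, orange EtOH), with the mean and SD of both groups together in black. Spry1 separates Clusters 20 and 21 from the rest, and Fgfr3 is highest in Cluster 2 (mean 159 CPM) and lowest in Cluster 20 (mean 21.8 CPM).

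The 3 Etv genes did not share a pattern. Etv4 averaged 24.1 ± 12.3 CPM (SD, n = 9) in Cluster 20, which exceeded Cluster 3 in 9 of 9 embryos, while Clusters 3 and 21 both averaged 12.4 CPM. Etv5 was lowest of the RGCs in Cluster 21 at 23.2 CPM, against 35.3 CPM in the mitotic IPCs of Cluster 17. In the other RGCs, Clusters 20 (83.6 ± 39.9 CPM), 3 (74.8 ± 11.01) and 12 (73.6 ± 17.9) stood above Cluster 2 (56.1 ± 16.2). Etv5 in Cluster 20 exceeded that in Cluster 3 in 5 of 9 embryos. Its highest cluster moved to Cluster 12 when medians or pooled counts replaced the mean over embryos, and to Cluster 3 without E1-1. Etv1, also known as a marker of subsets of cortical neurons, had its highest means in the PN of Cluster 24 (275 ± 132 CPM, SD, n = 10), the interneurons of Cluster 15 (197 ± 68.7) and the late interneuron precursors of Cluster 10 (126 ± 18.3). None of its 24 neighbouring steps exceeded 1 SD. It was at 5.9 ± 3.5 CPM in the subcortical PN of Cluster 16.

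Across the 25 cluster means, on the log2(CPM + 1) scale, the closest pair of members was Fgfr2 and Fgfr3 (r = 0.90, Spearman's rho = 0.79), followed by Etv4 and Spry1 (r = 0.81, rho = 0.71). The lowest r was that of Fgfr1 and Etv1 (0.13, rho = 0.18), and the lowest rho that of Etv4 and Spry2 (r = 0.58, rho = 0.08). The clusters share libraries and differ in depth, so these values are descriptions. Among 11621 genes of at least 10 CPM in at least 1 cluster, the genes with a pattern most like Fgfr2 were Tns1, Loxl3 and Fabp7 (r = 0.94 for each), and those most like Fgfr3 were Dusp16, Kcnj10 and Creb5 (r = 0.94 to 0.95). The nearest gene to Etv5 was Spred1 (r = 0.93), an inhibitor of the RAS cascade, followed by Kcnk5 and Pms1 (r = 0.91 for both). For the rest, the nearest genes were Gm16159, Rabepk and Fam114a1 for Fgfr1 (r = 0.87 to 0.95, where Gm16159 overlaps Fgfr1 on the opposite strand), Fli1, Itgb5 and Metrn for Fgf15 (0.86 to 0.91), and Gm42836, Bcar3 and Dnaaf3 for Etv4 (0.92 to 0.93). They were Gm49156, Gm29478 and B530045E10Rik for Spry1 (0.93 to 0.94), A2m, Cfap100 and Gpam for Spry2 (0.78 to 0.85), Lama4, Ttc6 and Dse for Spry4 (0.80 to 0.82), and Zbtb2, Actr5 and Snx25 for Etv1 (0.72 to 0.75).

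Within single nuclei, Etv1 and Etv5 tended to be detected together. In RGC Cluster 2, thinned to 2000 UMIs per nucleus, the log2 odds ratio of detecting both was 1.17 ± 0.83 (SD, n = 11) and was above 0 in 10 of 11 embryos, with 57 nuclei holding both. In Cluster 12 it was 1.09 ± 1.03 and above 0 in 10 of 11. Fgfr3 and Etv5 went the other way in Cluster 2, at -0.95 ± 0.85 and below 0 in 11 of 11 embryos, whereas in Cluster 12 they were at -0.28 ± 1.28 and below 0 in 6 of 11. Fgfr1 and Fgfr2 were at 0.05 ± 0.56 in Cluster 2, above 0 in 6 of 11, but at 0.59 ± 1.54 and above 0 in 10 of 11 when nuclei were thinned to 5000 UMIs. At that depth Etv1 and Etv5 were at 1.71 ± 0.62 in Cluster 2, above 0 in 11 of 11. These values rest on few nuclei per embryo and carry no test, and the pairs named were taken from 45. Each of the 4 counts of an odds ratio had 0.5 added, which can put a sparse pair above 0. Fgf15 and Spry1 in Cluster 2 at 2000 UMIs, with 0 nuclei holding both, were at 5.57 and above 0 in 11 of 11 embryos.

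To ask whether PAE changed these genes, EtOH and saline embryos were compared within each cluster and each major cell type with edgeR on the summed counts. A call needed an adjusted p under 0.05 over all genes tested and a fold below 0.8 or above the reciprocal of 0.8. The embryo was the replicate, and littermates were taken as independent. With all embryos and the fit above, Fgfr2 was the member called, with the same limit on which reads its counts include. It was called higher after EtOH in 4 of 25 clusters and in 3 of 4 major cell types, and its fold change was above 1 in all 25 clusters. The clusters come from the same embryos, so the 25 directions are not independent. The share of all genes with the same direction in every cluster was not computed. Over the 111 member tests in clusters, these 4 calls were 3.6%, against a background of 0.792% of all 217253 gene tests called in either direction. Each background is the share of all genes tested that met the same call.

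Fgfr2 in the IPCs was at 333, 310, 319, 388 and 528 CPM in saline embryos S1-1, S1-2, S2-1, S2-2 and S2-4. In the EtOH embryos it ran from 501 to 574 CPM with a median of 567. Only S2-4 reached the EtOH range, and the fold change was 1.41 (log2 0.50 ± 0.10 SE, adjusted p = 0.0470 by edgeR, background 0.883%).

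The same embryo overlapped the EtOH range in the neurons. In PN, Fgfr2 was at 270, 255, 233, 310 and 440 CPM in saline embryos and 392 to 488 CPM (median 437) in EtOH embryos, a fold of 1.40 (log2 0.48 ± 0.13 SE, adjusted p = 0.0411, background 4.17%). In Int it was at 284, 281, 282, 347 and 487 CPM in saline embryos and 424 to 484 CPM (median 465.7) in EtOH embryos, a fold of 1.32 (log2 0.40 ± 0.10 SE, adjusted p = 0.0395, background 3.6%). In both cell types the last saline value, again S2-4, lay within or above the EtOH values.

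RGCs had the highest Fgfr2 level and did not pass the test. Saline embryos held 663, 658, 594, 682 and 915 CPM and EtOH embryos 828 to 954 CPM (median 898), a fold of 1.21 (log2 0.28 ± 0.08 SE, adjusted p = 0.0551, background 2.31%). The EtOH effect on Fgfr2 in PN exceeded that in RGCs by 0.246 ± 0.0581 (log2, SE, adjusted p = 0.0439), in a single edgeR fit over all 4 cell types with the embryo as a term that was added after the values had been seen. By adjusted p alone, 0.325% of 15698 genes differed between PN and RGCs. Leaving out 1 embryo at a time kept this call in 1 of 11 fits, the one without S2-4 (0.268, adjusted p = 0.011). The differences of IPC and of Int from RGCs were 0.209 ± 0.0593 (adjusted p = 0.711) and 0.184 ± 0.0583 (adjusted p = 0.177). These are sums over clusters, whose make-up can differ between embryos, and its part in the difference was not tested. By cluster, the log2 fold changes of Fgfr2 overlapped. They ran from 0.22 (Cluster 3) to 0.48 (Cluster 20) in RGCs and from 0.37 (Cluster 24) to 0.58 (Cluster 22) in PN.

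**Figure D3:**
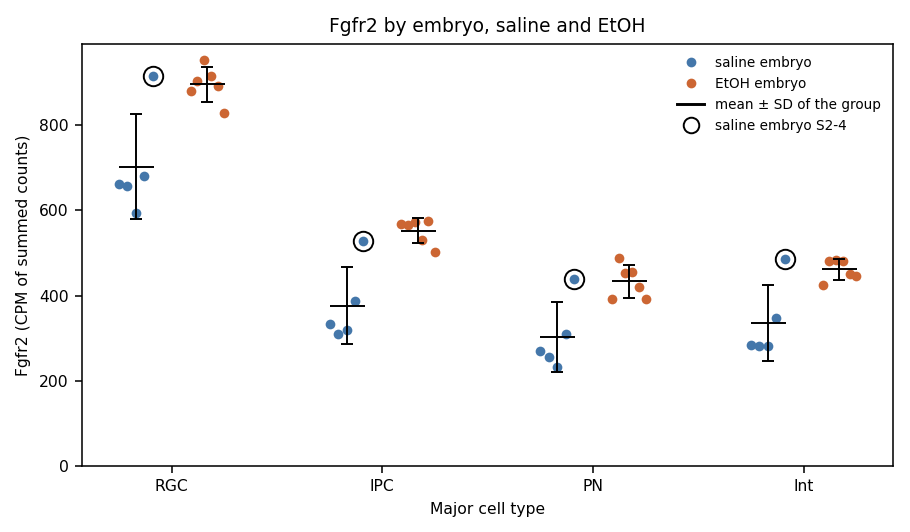
Fgfr2 in CPM of counts summed over the clusters of each major cell type, 1 point per embryo (blue saline, orange EtOH), with the mean and SD of each group in black and saline embryo S2-4 ringed. The other 4 saline embryos lie below all EtOH embryos in each cell type, and S2-4 lies among or above them.

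The 4 clusters with a call were the migrating interneurons of Cluster 5, the subcortical PN of Cluster 16, the mitotic IPCs of Cluster 17 and the callosal PN of Cluster 22. In Cluster 17 the saline embryos held 377, 364, 363, 459 and 563 CPM and the EtOH embryos 553 to 697 CPM, a log2 fold change of 0.51 ± 0.10 (SE, adjusted p = 0.0353, background 0.129%). The log2 fold changes were 0.46 ± 0.11 in Cluster 5 (adjusted p = 0.0448, background 1.2%), 0.51 ± 0.12 in Cluster 16 (adjusted p = 0.0486, background 0.282%) and 0.58 ± 0.13 in Cluster 22 (adjusted p = 0.0478, background 0.441%). The other 21 clusters ranged from 0.22 ± 0.09 in Cluster 3 to 0.58 ± 0.19 in Cluster 23.

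S2-4 had the highest Fgfr2 of the saline embryos in 25 of 25 clusters, so leaving it out could only raise these values. The log2 fold change of Fgfr2 became 0.36 ± 0.06 in RGCs (adjusted p = 0.000444) and 0.63 ± 0.07 in IPCs (adjusted p = 2.5e-06). The neurons gave 0.64 ± 0.07 (PN, adjusted p = 1.43e-05) and 0.54 ± 0.06 (Int, adjusted p = 1.99e-05). It was then called in 19 of 25 clusters, where the background over all genes had also risen, to 8.78%. EtOH and saline embryos did not overlap in 21 of 25 clusters without S2-4, and in 1 of 25 with it. The clusters come from the same embryos, and the share of all genes with such a separation was not computed. Nothing is therefore read from these 2 counts. Leaving out any other single embryo gave 0 Fgfr2 calls in the clusters by edgeR, and 0 in the major cell types except without E1-1, where 1 was made. With batch as a term in the fit, 1 call in major cell types and 1 in clusters were made, and with counts summed per dam 0 in major cell types and 3 in clusters, 2 of them Fgfr2. The log2 fold changes of Fgfr2 in PN were 0.48 with batch as a term and 0.46 per dam. Over all 11 fits with an embryo left out its log2 fold change stayed between 0.23 and 0.36 in RGCs and between 0.41 and 0.64 in PN.

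**Figure D4:**
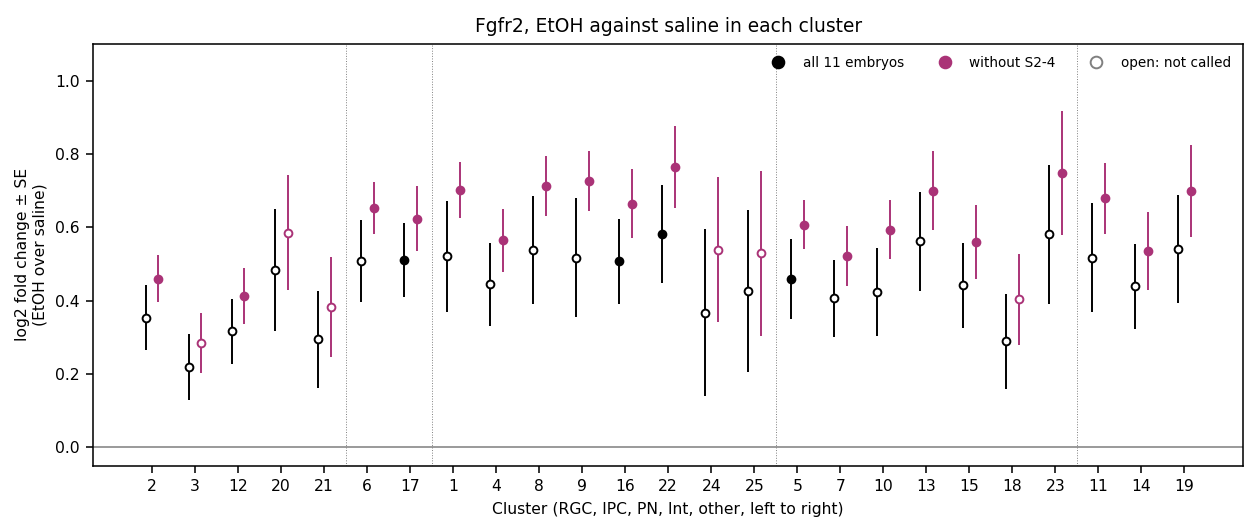
Log2 fold change of Fgfr2 (EtOH over saline, with SE) in the 25 clusters, with all 11 embryos in black and without saline embryo S2-4 in purple, where filled points are calls. All values lie above 0, from 0.22 to 0.58 with all embryos and from 0.28 to 0.76 without S2-4.

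Other measures are given beside Fgfr2, and S2-4 lay with the EtOH embryos in some of them but not in all. Within batch 1, which holds no S2-4, the log2 ratio of mean Fgfr2 CPM was lowest in RGCs (0.43) and higher in IPCs (0.82), PN (0.75) and Int (0.68). Within batch 2 it was 0.30, 0.40, 0.39 and 0.32. Markers of microglia (P2ry12, Csf1r, Cx3cr1 and Ly86, all 4 detected) summed in RGCs to 14.4 to 29.1 CPM in 4 saline embryos, 40.5 CPM in S2-4 and 38.3 to 48.2 CPM in the EtOH embryos. In PN these sums were 8.91 to 16.4, 21.2 and 18.4 to 27.4 CPM. Markers of IPCs (Eomes, Neurog2 and Mfap4) in PN were at 30.3 to 47.2 CPM in saline and at most 29.7 CPM in EtOH embryos. The groups did not overlap, and S2-4 lay on the saline side at 34.7 CPM. The share of all genes with such a separation was not computed, so nothing is read from it. Interneuron markers (Gad1, Gad2, Dlx1, Dlx2 and Dlx6os1) in PN were at 103 to 224 and 58.8 to 115 CPM, with S2-4 at 105. P2ry12 and Cx3cr1 made up most of each microglia sum, and Csf1r and Ly86 were at most 3.72 CPM in any embryo and cell type. For Csf1r and for Ly86 the groups overlapped in each major cell type. The study had removed its microglia cluster before deposit. Markers of Cajal-Retzius cells (Reln, Trp73 and Lhx1) moved the other way in RGCs, at 68.7 to 167 CPM in saline embryos, with S2-4 the lowest, and 32.5 to 83.9 CPM in EtOH embryos. Striatal markers (Rarb, Ebf1 and Foxp1) in RGCs were at 561 to 744 CPM, again with S2-4 the lowest, and 492 to 622 CPM. The RGC marker list in RGCs was at 754 to 988 CPM in saline embryos, with S2-4 at 984, and 973 to 1183 CPM in EtOH embryos. Dividing-cell markers (Top2a and Mki67) in RGCs were at 624 to 984 CPM in saline embryos, with S2-4 the highest. They were at 701 to 816 CPM in EtOH embryos, all below S2-4. The marker lists given here are a part of those summed, and others also shifted. In RGCs, cortical hem markers were at 229 to 863 CPM in saline embryos (S2-4 at 314) and 31.9 to 547 CPM in EtOH embryos. Pericyte markers in RGCs were at 16.3 to 27.9 CPM (S2-4 the highest) and 22.7 to 35.5 CPM. The part of these markers in the Fgfr2 result was not tested. With every nucleus thinned to 2000 UMIs, the log2 fold changes of Fgfr2 were 0.31 for RGCs, 0.50 for IPCs, 0.51 for PN and 0.40 for Int, with 1 call in major cell types.

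At 2000 UMIs per nucleus, the share of nuclei with an Fgfr2 UMI was higher after EtOH in 24 of 25 clusters, by -1.73 to 16.98 percentage points, and 17 clusters had an unadjusted p under 0.05. As deposited, where EtOH nuclei were shallower, it was higher in 17 of 25, and 1 had such a p. The clusters come from the same embryos, so these counts are not independent. Shares were tested for the members alone, so the counts have no background over all genes. In Cluster 4, picked after its values were seen, the thinned share was 41.3%, 34.0%, 33.3%, 49.8% and 55.5% in the saline embryos and 54.0% to 58.8% in the EtOH embryos, a difference of 13.2 percentage points. In a two-sided exact permutation test its p was 0.00866, and 0.271 after adjustment over the 250 tests of members and clusters. By that test 0 of the 250 passed after adjustment and 27 had an unadjusted p under 0.05. The smallest p the exact test can give with 5 and 6 embryos is 0.00216.

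None of the other 9 members was called by edgeR in a cluster (0 of 86 tests, 9 with an unadjusted p under 0.05) or in a major cell type (0 of 25 tests, 2 under 0.05). Log2 fold changes of Fgfr1 ran from -0.16 ± 0.15 (SE) in IPCs to 0.04 ± 0.06 in RGCs over the 4 cell types. Fgfr3 was at 0.21 ± 0.15 in RGCs (adjusted p = 0.377), Etv4 at 0.35 ± 0.20 (adjusted p = 0.248), Etv5 at 0.19 ± 0.11 (adjusted p = 0.288) and Spry1 at -0.28 ± 0.39 (adjusted p = 0.670). Spry4 had too few counts to be tested.

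Spry2 in interneurons came closest. Saline embryos held 8.0, 8.3, 7.4, 5.6 and 6.5 CPM and EtOH embryos 4.6 to 6.2 CPM (median 5.4), a log2 fold change of -0.52 ± 0.15 (SE, adjusted p = 0.0501 by edgeR). Of 8 alternatives to this fit 2 called it (DESeq2 and limma voom), with adjusted p from 0.0199 to 0.141 and log2 fold changes from -0.93 (nuclei thinned to 2000 UMIs, not called) to -0.44. Of 11 fits with an embryo left out 2 called it, those without S2-2 or S2-4, the lowest saline embryos (-0.59 and adjusted p = 0.00858 without S2-4), and the highest adjusted p was 0.138. The log2 ratio of its mean CPM was -0.60 within batch 1 and -0.28 within batch 2. In PN it was at -0.36 ± 0.20 (adjusted p = 0.212), and at -0.47 (adjusted p = 0.0463) without S2-4. In RGCs it was at -0.05 ± 0.23, and the difference of Int from RGCs was -0.49 ± 0.22 (adjusted p = 0.416).

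Etv1 had the largest fold changes, in clusters where it was scarce. In the callosal PN of Cluster 1 it was at 12.8, 6.7, 21.3, 13.2 and 3.5 CPM in saline embryos and 1.1 to 9.3 CPM in EtOH embryos, a log2 fold change of -1.58 ± 0.58 (SE, adjusted p = 0.131 by edgeR). Of 7 alternatives 2 called it, DESeq2 and counts summed per dam, with adjusted p from 0.0141 to 0.4. In the early PN of Cluster 9 it was at -1.25 ± 0.48 (adjusted p = 0.158), and in the cortical hem RGCs of Cluster 21 at -1.66 ± 0.48 (adjusted p = 0.125). The filter on low counts kept Etv1 in Cluster 21 with all embryos and in the 5 fits with an EtOH embryo left out, but not in any fit with a saline embryo left out. Whether it is tested thus depends on the group where it is higher, and nothing is read from a call there. Its value ran from -1.36 to -2.64 in those 5 fits. Its log2 ratio of mean CPM was -0.48 within batch 1 and -3.05 within batch 2. S2-4 had the lowest Etv1 of the saline embryos in Clusters 1 and 9, so leaving it out could only enlarge these differences. They then passed (-1.82, adjusted p = 0.0226, and -1.51, adjusted p = 0.00268), where 8.78% of all gene tests did. In Cluster 24, where Etv1 was highest, saline embryos held 175, 335, 347, 361 and 151 CPM and EtOH embryos 138 to 559 CPM, and the groups overlapped.

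Fgf15 in Cluster 20 had a log2 fold change of 0.73 ± 0.26 (adjusted p = 0.335 by edgeR, 5 saline and 4 EtOH embryos). Limma voom called it with batch as a term and the dam as a random block. In PN, where embryos held 0.254 to 2.52 CPM, the log2 fold change of Fgf15 was -1.06 ± 0.44 (adjusted p = 0.108 by edgeR). Etv5 in Cluster 12 was at 0.37 ± 0.17 (adjusted p = 0.252). Fgfr3 in Cluster 16 was at -0.74 ± 0.33 (adjusted p = 0.328) and Fgfr1 in the callosal PN of Cluster 22 at -0.45 ± 0.19 (adjusted p = 0.371).

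Of 62 further genes of the pathway, 40 to 53 were tested per major cell type, and 9 calls were made by edgeR in all. Without S2-4 there were 24, and without any other single embryo 0 to 6 (0 without S1-1, S1-2, S2-1, E2-2 or E2-3). The rise without S2-4 went with one over all genes, from 0.792% to 8.78% of the gene tests in clusters. In RGCs 1 of 52 was higher (background 2.31%) and 1 lower (background lower 1.48%), and in IPCs 0 of 40 were higher and 1 lower (background lower 0.64%). In PN 2 of 53 were higher (background 4.17%) and 2 lower (background lower 2.36%), and in Int 0 of 52 were higher and 2 lower (background lower 1.23%). The counts of higher genes lay below the background share, and each count of lower genes rests on 1 or 2 genes, so nothing is read from them about the list. Median log2 fold changes of the list were -0.09, -0.12, -0.03 and -0.03, beside 0.00, 0.01, 0.01 and 0.01 for all genes tested.

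Map2k2, a MAP kinase kinase, was called higher in RGCs (0.36 ± 0.08, adjusted p = 0.0402 by edgeR). It was also above 0 in IPCs (0.42 ± 0.11, adjusted p = 0.0594), Int (0.31 ± 0.07, adjusted p = 0.0351) and PN (0.23 ± 0.06, adjusted p = 0.0308). The call was missed by adjusted p in IPCs and by fold in Int and PN. In PN the ligands Fgf1 (0.79 ± 0.14, adjusted p = 0.0235) and Fgf2 (0.98 ± 0.30, adjusted p = 0.0494) were higher and the inhibitor Il17rd was lower (-0.74 ± 0.14, adjusted p = 0.0235), all at low levels. Fgf1 was at 2.29 to 3.12 CPM in saline and 3.98 to 5.87 CPM in EtOH embryos, and Il17rd at 5.69 to 7.95 and 3.26 to 5.32 CPM, with no overlap in either. Both were named for a call on these same values. The share of all genes with such a separation was not computed, so nothing is read from it. Hs6st2, which sulfates heparan sulfate, was lower in Int (-0.45 ± 0.10, adjusted p = 0.0310), at 125 to 165 CPM in saline and 93.7 to 128 CPM in EtOH embryos. Without a call, it was at -0.26 in RGCs, -0.38 in IPCs and 0.12 in PN. Fgf1 was at 0.73 in RGCs and 0.58 in Int, and Fgf2 at 0.20 and 0.63, none of them called. Il17rd was at -0.18 in RGCs, -0.23 in IPCs and -0.07 in Int, also not called. Whether these effects differed between cell types was not tested.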

How the data were processed

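Nuclei were isolated from embryonic cortices and sequenced with 10X Single Cell 3′ V3.1 chemistry, and Cell Ranger was used by the authors with its mm10 reference. They filtered nuclei and genes, clustered the nuclei, and removed thalamic, low-count and non-neuronal clusters, microglia among them. The deposited tables hold raw UMI counts per gene and nucleus, 1 table per embryo and cluster. Whether intronic reads were counted, and the version of Cell Ranger, are not given in the sources used here. Here counts were summed per embryo and cluster (at least 10 nuclei) or major cell type and tested with edgeR 4.0.16 (quasi-likelihood, TMM, filterByExpr, treatment alone) in R 4.3.3, with Benjamini-Hochberg adjustment over all genes. Total counts per embryo were 14078316 to 83061737. Errors on levels, shares and odds ratios are SDs over embryos, and those on log2 fold changes and their differences are SEs from the fit. The edgeR fit was run on simulated counts for RGCs, Cluster 2 and Cluster 20. Those counts were drawn independently per embryo, with no effect of batch or dam and no embryo unlike its group. DESeq2 1.42.0 and limma 3.58.1 were alternatives. Nuclei were thinned to 2000 UMIs for shares. No doublet caller was run here. A saline embryo labelled S2-3 is not used here, since no counts were available for it. The study reports that it left out a saline sample, which it does not name, because its cells were spread differently over the clusters.

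All 10 members were described in every cluster. Members called in any fit, pathway genes called in a major cell type (1 gene of that list is counted but not reported here), and the 3 genes nearest to each member across clusters were named. Values of Fgf15 in PN and of Etv5, Fgfr1 and Fgfr3 short of a call, and the rostral ligands in Cluster 20, were picked after their values were seen. The members and lists were chosen with earlier results of these data known.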

Additional observations from a re-analysis of the deposited data

Results flagged for a closer look

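In 7 of 64 groups of embryos checked (members with at least 100 UMIs in a cell type), 1 embryo lay far from the rest by Dixon's criterion, and chance alone would mark about 1 in 20. Saline embryo S2-4 was far above its group for Fgfr2 in RGCs (915 CPM, the next saline embryo at 682) and for Etv5 in Int (11.9 CPM, next 7.39). Saline embryo S2-1 was high for Etv1 in IPCs (81.7 CPM, next 42.1) and for Spry1 in Int (1.94 CPM, next 1.02). Saline embryo S2-2 was high for Fgfr1 in PN (105 CPM, next 97.4), saline embryo S1-2 for Etv4 in RGCs (9.36 CPM, next 6.65) and EtOH embryo E2-4 for Etv1 in PN (49.1 CPM, next 24.8).

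The EtOH effect on Fgfr2 was larger in PN than in RGCs by 0.246 on the log2 scale (edgeR, adjusted p = 0.0439), a call lost in 10 of 11 fits with an embryo left out (adjusted p up to 0.226). The differences of IPC and of Int from RGCs did not pass (adjusted p = 0.711 and 0.177). It is named here because the difference itself was tested, with a fit chosen after seeing the data. The sums over clusters can differ in make-up between embryos, and the fold changes by cluster overlapped between PN and RGCs.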

How the results depend on the processing

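The 4 cluster calls of members, all Fgfr2, became 14 with DESeq2 (13 of Fgfr2) and 17 with no filter on low counts (13). They became 18 with limma voom, where batch was a term and the dam a random block (16). With edgeR they became 1 with batch as a term and 1 with nuclei thinned to 2000 UMIs. The rest were Etv1 in Clusters 1, 9, 21 or 23 and Fgf15 in Clusters 9 or 20. The 3 calls in major cell types became 1 with batch as a term, 1 with thinned nuclei and 0 with counts summed per dam, where edgeR left 8 tests with an unadjusted p under 0.05 and made 3 calls in clusters. Over the 8 fixed alternatives the log2 fold change of Fgfr2 itself ran from 0.443 to 0.504 in IPCs and from 0.463 to 0.51 in PN. With a replicate block over 5 pairs of same-numbered embryos edgeR made 0 calls in clusters and 0 in major cell types, with 32 and 6 tests at an unadjusted p under 0.05. The numbers did not pair the embryos, since deviations of same-numbered embryos did not correlate above 0.1 in every pair. The 9 pathway calls became 3 with thinned nuclei. Leaving out 1 embryo at a time gave 0 to 21 cluster calls, 0 to 6 calls in major cell types and 0 to 24 pathway calls, the highest each without S2-4, and 0.191 to 0.269 for the Fgfr2 difference between PN and RGCs. The number of members highest in an RGC cluster was 9 throughout, and the Etv1 and Etv5 log2 odds ratio in Cluster 2 stayed at 1.05 to 1.33 when 1 embryo was left out. Cluster 20, with 661 nuclei, limits the precision of its values.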

Other observations

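Of the 13 further FGF ligands listed, 4 with their highest level outside Cluster 20 are described here, picked after their values were seen and with no test. Fgf9 was at 58.4 ± 29.1 CPM (SD, n = 10) in the PN of Cluster 24 and 35.7 ± 14.8 CPM in Cluster 25, against a median of 3.98 CPM over the 25 cluster means. Fgf10 was at 30.8 ± 18.5 CPM in the callosal PN of Cluster 22 and 3.64 CPM in the next cluster. Fgf18 was at 14.2 ± 2.49 CPM in the subcortical PN of Cluster 4, close to Cluster 22 at 11.9 ± 5.46 CPM. Fgf7 was at 14.5 ± 5.21 CPM in RGC Cluster 3, with Cluster 21 next at 6.1 ± 5.04 CPM. Sulf1, which removes sulfate from heparan sulfate, was at 2082 ± 447 CPM in the cortical hem RGCs of Cluster 21, against 196 ± 120 CPM in Cluster 20.

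Of the 10 listed feedback inhibitors outside the Sprouty family, 5 (Il17rd, Dusp6, Spred1, Spred2 and Spred3) also had their highest mean in Cluster 20. The share of all genes highest there was not computed, so nothing is read from this count. Spred2 (190 ± 37.0 CPM, Cluster 12 at 183) and Spred3 (29.3 ± 6.66 CPM, Cluster 24 at 28.7) were close to the next cluster. Il17rd averaged 313 ± 140 CPM there (SD, n = 9), with Cluster 21 next at 50.01 ± 16.99, and Dusp6, a phosphatase acting on MAP kinase, was at 6.52 ± 3.12 CPM, above 0 in 8 of 9 embryos. Spred1 averaged 202 ± 44.9 CPM in Cluster 20, close to Cluster 3 at 191 ± 11.6, and was lowest of the RGC clusters in Cluster 21 at 105 ± 17.06.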
